A study of Homo sapiens with 18 samples.

Results

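The HOXD cluster on human chromosome 2 was followed through Cut&Tag profiles of H3K27me3, H3K4me3, H3K4me1 and H3K27ac. Its 9 genes, HOXD1, HOXD3, HOXD4, HOXD8, HOXD9, HOXD10, HOXD11, HOXD12 and HOXD13, were taken by name from 20020 protein-coding genes of GENCODE release 44. For each gene and modification, the listed intervals that overlap a window of 2 kb either side of any annotated transcription start site (TSS) were collected, and the interval with the highest mean count over the 4 libraries stood for the gene. All 9 genes had an H3K27me3 interval. HOXD8 and HOXD13 had an H3K4me3 interval, HOXD3 had an H3K4me1 interval, and none of the 9 had an H3K27ac interval.

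Cut&Tag uses an antibody to bring the Tn5 transposase to a histone modification, where it cuts and tags the DNA. The libraries came from MOLM-13, an established line of human acute myeloid leukemia with a KMT2A rearrangement. Cells received 100 nM of PR-957 (ONX-0914), an inhibitor of the immunoproteasome subunit PSMB8, or its solvent DMSO, for 72 h by the labels, while a figure legend of the study gives a shorter time. There were 2 libraries per treatment and modification, 16 in all, and nothing in the sources says that the 2 libraries of a group came from separate cultures. The treatment was thus compared in 1 cell line, and the p-values measure only the spread between these libraries.

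HOX genes encode homeodomain transcription factors that lie in 4 clusters and pattern the body axis. In cells where a cluster is silent, Polycomb repressive complex 2 places H3K27me3 over it as one broad domain, whereas Trithorax-group methyltransferases such as KMT2A place H3K4 methylation at starts of active genes. H3K27ac marks active promoters and enhancers, and H3K4me1 marks enhancers and the flanks of promoters. In KMT2A-rearranged leukemia the HOXA cluster is known to be active.

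The 9 genes lie on the plus strand within 95.9 kb, from the HOXD13 start at position 176092721 to the HOXD1 start at 176188668 (hg38). HOXD9 to HOXD13 are the genes related to Abdominal-B of the fly, which act in the limbs, genital tract and hindgut, and HOXD1, HOXD3, HOXD4 and HOXD8 belong to the anterior and central groups. Promoter sequences, 250 bases before to 50 after the start, were taken from RefSeq (GRCh38.p14) and matched 8 of the 9 genes, all but HOXD9. Each of the 8 was identical to hg38 at its coordinates. They are printed for the pair with an H3K4me3 interval and for those of the 8 with the fewest and the most CG dinucleotides, because CG-rich DNA is where Polycomb and KMT2A complexes are known to be recruited. All are on the plus strand of chromosome 2, 5′ to 3′, with each CG in capitals: HOXD13 at chr2:176092471-176092770, HOXD8 at chr2:176129455-176129754, HOXD4 at chr2:176151300-176151599 and HOXD1 at chr2:176188418-176188717.
HOXD13: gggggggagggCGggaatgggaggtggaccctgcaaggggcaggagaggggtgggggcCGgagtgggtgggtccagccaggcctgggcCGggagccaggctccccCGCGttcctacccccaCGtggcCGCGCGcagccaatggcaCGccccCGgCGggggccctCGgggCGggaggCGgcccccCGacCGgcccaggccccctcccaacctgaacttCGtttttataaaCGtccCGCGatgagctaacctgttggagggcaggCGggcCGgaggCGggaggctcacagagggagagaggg
HOXD8: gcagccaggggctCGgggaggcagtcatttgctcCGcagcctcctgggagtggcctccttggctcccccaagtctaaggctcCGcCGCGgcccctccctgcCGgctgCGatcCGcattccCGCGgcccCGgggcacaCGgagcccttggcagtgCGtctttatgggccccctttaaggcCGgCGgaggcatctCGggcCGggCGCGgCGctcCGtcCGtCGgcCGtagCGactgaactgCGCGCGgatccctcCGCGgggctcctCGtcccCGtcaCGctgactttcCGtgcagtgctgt
HOXD4: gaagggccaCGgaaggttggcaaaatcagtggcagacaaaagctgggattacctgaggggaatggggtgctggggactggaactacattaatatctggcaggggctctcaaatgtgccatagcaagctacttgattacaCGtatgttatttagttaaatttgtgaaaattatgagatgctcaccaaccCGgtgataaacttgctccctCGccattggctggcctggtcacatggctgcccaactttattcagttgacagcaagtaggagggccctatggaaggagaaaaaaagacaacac
HOXD1: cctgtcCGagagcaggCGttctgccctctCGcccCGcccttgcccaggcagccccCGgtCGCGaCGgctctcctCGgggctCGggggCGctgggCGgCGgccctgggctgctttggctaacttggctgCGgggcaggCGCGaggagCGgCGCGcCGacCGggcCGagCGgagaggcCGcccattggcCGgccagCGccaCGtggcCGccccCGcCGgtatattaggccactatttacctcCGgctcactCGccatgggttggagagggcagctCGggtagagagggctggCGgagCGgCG

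The HOXD1 promoter held 36 CG and the HOXD8 promoter 34, against a median of 14 over the 35116 promoters of the same length in the table. At least as many CG as in HOXD1 occurred in 12.7% of all promoters, and at least as many as in HOXD8 in 15.6%. HOXD13 had 24 CG, HOXD11 had 27, HOXD3 had 25, HOXD10 had 23 and HOXD12 had 19. HOXD4 was the exception with 4 CG, a number that 75.5% of promoters reach. At least 1 CG was found in 96.0% of all promoters, so the letters alone single out no promoter, and a CG reads the same on both strands. Among these 8 genes HOXD1, with the most CG, had no H3K4me3 interval.

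One H3K27me3 interval covered the whole cluster. It runs over chr2:176060059-176196945, is 137 kb wide, and stood for all 9 genes, so the genes share 1 measurement and are not 9 independent ones. It also covers the starts of EVX2, the homeobox gene beyond HOXD13, of the noncoding HOXD-AS2, HAGLR and HAGLROS, and of the microRNA gene MIR10B. The median width of all listed H3K27me3 intervals was 2.91 kb, and the HOXD interval had rank 2 in both width and mean count among 13899 separate H3K27me3 loci. By density, the scaled count (CPM) per kb, it had rank 11. Of the 3976 protein-coding genes with an H3K27me3 interval, 99.2% had a lower density than the HOXD genes, whose mean over the 4 libraries was 32.7 CPM per kb against a median gene of 1.96 CPM per kb.

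There are 4 overlapping versions of the domain over all 9 starts. Their left edges differ by 18129 bp and their right edges by 3617 bp, and their widths run from 117 to 137 kb. The narrowest version, chr2:176078188-176195569, held 94.2% to 94.5% of the count of the widest in the 4 libraries. Its density in DMSO was 40.6 CPM per kb. The 14.0 kb interval on the far side of EVX2, chr2:176063575-176077570, had 20.0 CPM per kb, so the level beside the genes was lower by a factor of 2.02. The map of the listed intervals shows the domain ending between the cluster with EVX2 and the next genes, LNPK and MTX2.

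**Figure D1:**
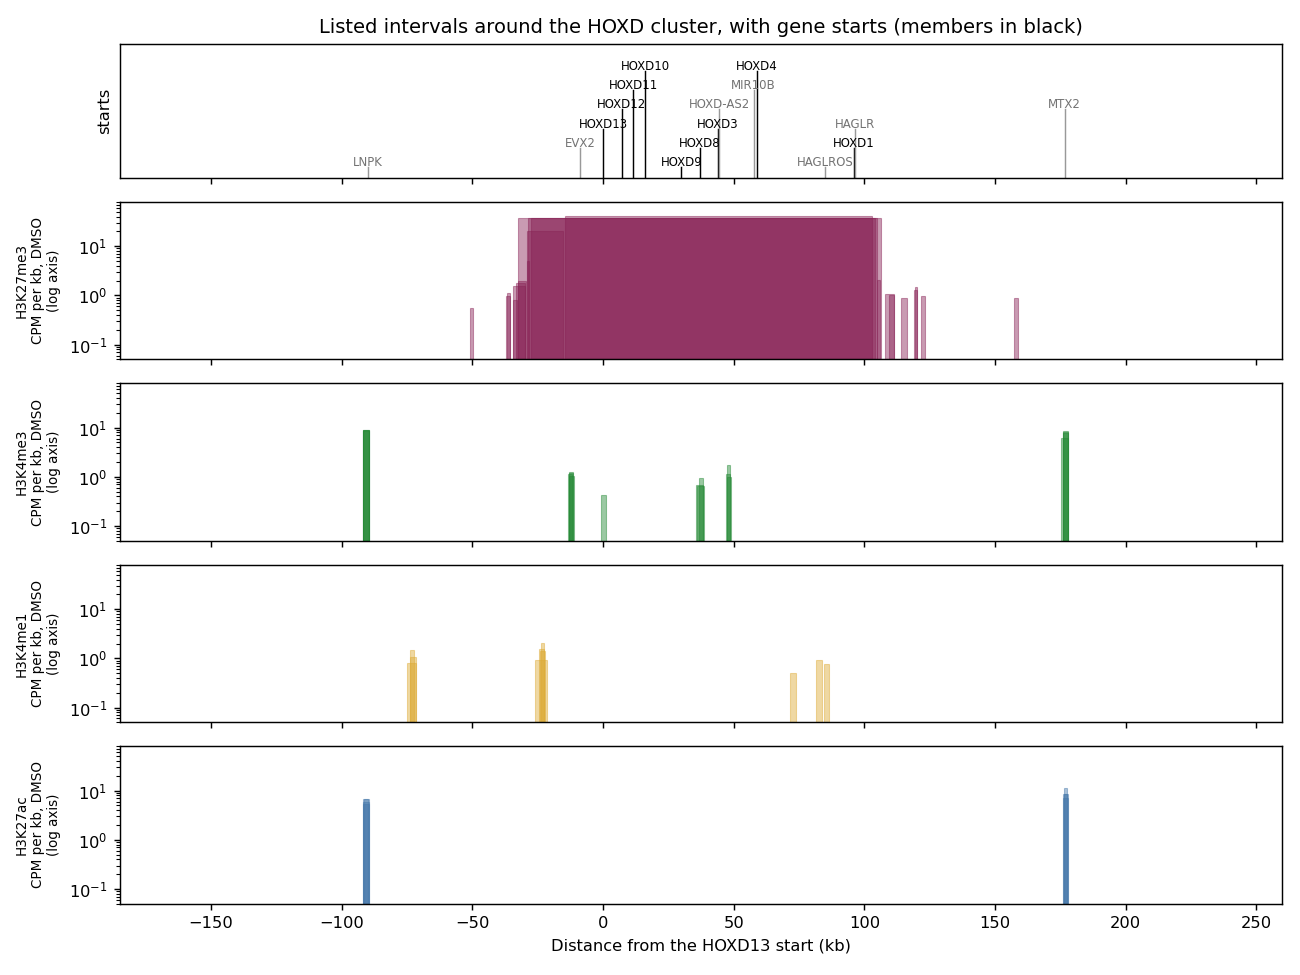
Listed intervals of the 4 modifications around the cluster, plotted by distance from the HOXD13 start in kb (x axis). Bar height is CPM per kb in DMSO (mean of 2 libraries, log axis), overlapping intervals are drawn over each other, and the top strip marks gene starts with the 9 HOXD genes in black. One H3K27me3 block covers all HOXD genes, 4 small groups of H3K4me3 intervals lie inside it, and H3K27ac appears only at LNPK and MTX2 on either side.

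The mean base composition of the domain differed from that of the sequence on either side. The domain held 49.9% GC and 32.4 CG per kb. The same length of sequence before it held 36.7% GC and 7.06 CG per kb, and the same length after it held 37.4% GC and 7.14 CG per kb. These figures describe the sequence under the interval and were not tested against the signal.

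H3K27me3 over the HOXD genes was lower after PR-957 under the scaling used here. The interval had 48720 and 56171 counts in DMSO and 43874 and 47946 in PR-957. Scaled by library size and TMM factors, these are 5154 and 4949.9 CPM in DMSO and 4067.5 and 3708 CPM in PR-957. Both PR-957 libraries lay below both DMSO libraries, as in 22.5% of the 31806 intervals tested. The mean was 5052 ± 144 CPM (SD, n = 2) in DMSO and 3888 ± 254 CPM (SD, n = 2) in PR-957, a ratio of 0.770. The log2 fold change was -0.38 with a standard error of 0.040, and edgeR's quasi-likelihood test gave an adjusted p of 3.14e-14. All 9 genes were therefore called lower through 1 interval, while 5.09% of all tested H3K27me3 intervals were called lower and 0.824% higher. Each of the 4 overlapping versions had a log2 fold change of -0.38, and the interval beyond EVX2 had -0.40 (edgeR adjusted p = 6.11e-10).

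The size of this difference depended on the scaling, and under one scaling it did not pass. With library size alone the log2 fold change was -0.22 (edgeR adjusted p = 3.11e-13), where 2.19% of all intervals were called lower and 4.78% higher. With DESeq2 it was -0.37 (adjusted p = 3.43e-13), where 3.64% were called lower. The median of all intervals stood at 0.18 with library size alone and at 0.016 with TMM, so that the HOXD interval lay 0.39 below the median in either case (-0.39 on the log2 scale). With cyclic loess offsets, which set intervals of like count level equal across libraries, it was -0.05 (edgeR adjusted p = 0.121), so that 0 of the 9 genes were called while 3.06% of intervals were called lower and 2.51% higher. Removing the trend on counts per kb gave -0.12 (edgeR adjusted p = 1.15e-05), with 2.74% of intervals called lower. Removing the trend on GC content gave -0.33 (edgeR adjusted p = 3.69e-13), with 4.84% called lower. Of all intervals, 11.5% had a lower log2 fold change than HOXD under TMM and 43.8% under cyclic loess.

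**Figure D2:**
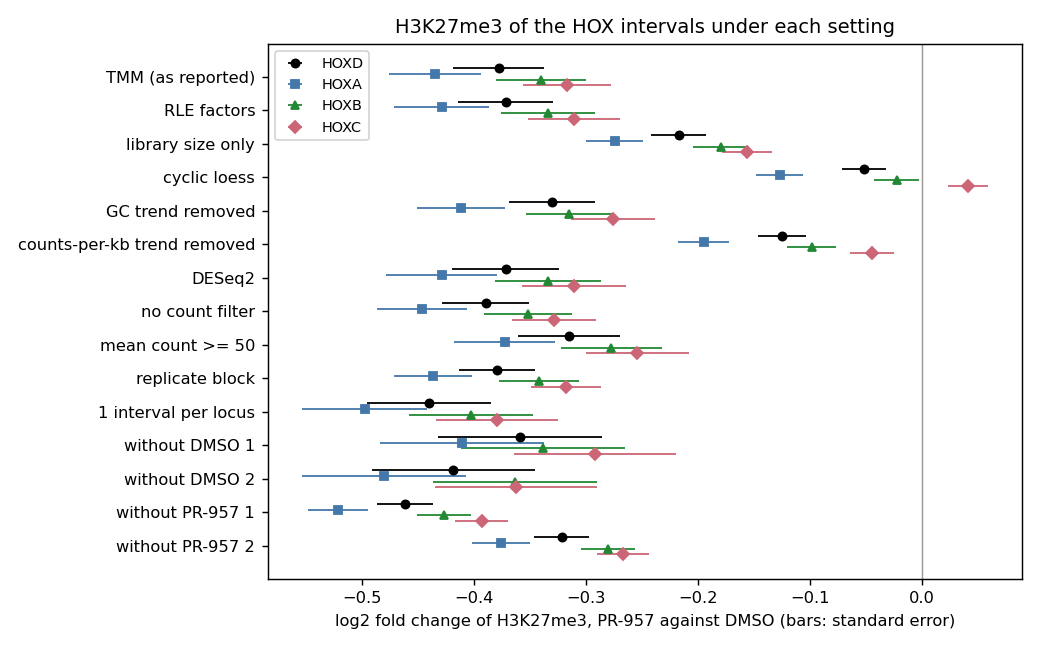
Log2 fold change of H3K27me3, PR-957 against DMSO (x axis), for the main interval of each HOX cluster under each setting (y axis), with bars for the standard error. HOXD stayed below 0 in every setting drawn and came nearest to it under cyclic loess, at -0.05, where HOXC lay above 0 at 0.041.

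The other HOX clusters also carried wide H3K27me3 intervals, and HOXD lay among them in density and log2 fold change. The HOXA interval differs in that it overlaps wide intervals of H3K27ac (chr7:27147867-27178141) and H3K4me3 (chr7:27145930-27196839). The main interval covered 8 HOXA genes, 9 HOXB genes and 9 HOXC genes, with densities in DMSO of 32.6, 32.2 and 44.8 CPM per kb against 36.9 for HOXD. The log2 fold change was -0.43 for HOXA, -0.34 for HOXB and -0.32 for HOXC (edgeR adjusted p = 2.24e-16, 5.99e-12 and 2.30e-11). By gene, 9 of 11 HOXA genes, 10 of 10 HOXB genes and 9 of 9 HOXC genes were called lower. These calls rest on only 2, 2 and 1 distinct intervals, so the genes are not independent. Of all tested intervals, 5.09% were called lower. With cyclic loess only HOXA of the 4 main intervals passed (log2 fold change -0.13, edgeR adjusted p = 9.09e-07). With the trend on counts per kb removed HOXC did not pass (adjusted p = 0.231).

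The ratio of HOXD to another cluster within a library, with separate intervals summed over each cluster, does not depend on a factor per library. HOXD H3K27me3 was 1.27 and 1.28 times that of HOXA in DMSO and 1.32 and 1.33 times in PR-957. Against HOXC it was 0.631 and 0.636 in DMSO and 0.610 and 0.604 in PR-957. Neither pair of groups overlapped, but the shifts were small, at 0.056 and -0.061 on the log2 scale. Against HOXB it was 0.784 and 0.767 in DMSO and 0.769 and 0.768 in PR-957, and the groups overlapped. The exact two-sided permutation test of 2 libraries against 2 cannot give a p below 0.333, and over the 8 ratios of the modifications the adjusted p was 0.667 or higher.

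**Figure D3:**
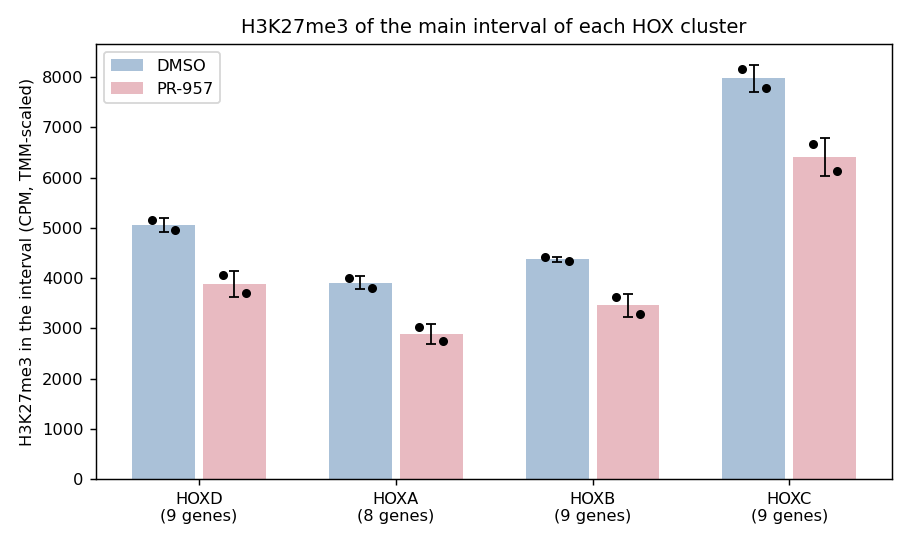
H3K27me3 in the main interval of each HOX cluster (y axis, CPM after TMM scaling), for DMSO (blue) and PR-957 (red). Bars are means of 2 libraries, whiskers the SD, and points the libraries. In each cluster both PR-957 libraries lie below both DMSO libraries, as in 22.5% of the 31806 H3K27me3 intervals tested. HOXD is at 5052 CPM in DMSO and 3888 CPM in PR-957.

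HOXD was one of a set of wide H3K27me3 domains with lower levels and was not the lowest. Of 36 loci at least 50 kb wide, 24 (66.7%) were called lower and 0 higher by edgeR, with a median log2 fold change of -0.27 and a range from -0.48 to 0.12. In 6 of them the log2 fold change was below that of HOXD. With library size alone 20 were called lower and 7 higher, and with cyclic loess 11 lower and 11 higher. GC content moved with the difference over these loci: the Pearson correlation was 0.69 over 36 loci, which share the same 4 libraries. HOXD, at 49.9% GC, had rank 26 of 36 by GC content. The share of intervals with an even count also moved with treatment, at 59.0% and 58.5% for H3K27me3 in DMSO and 68.6% and 69.5% in PR-957. The part of GC content and of this share in the HOXD result was not tested beyond the GC fit above.

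**Figure D4:**
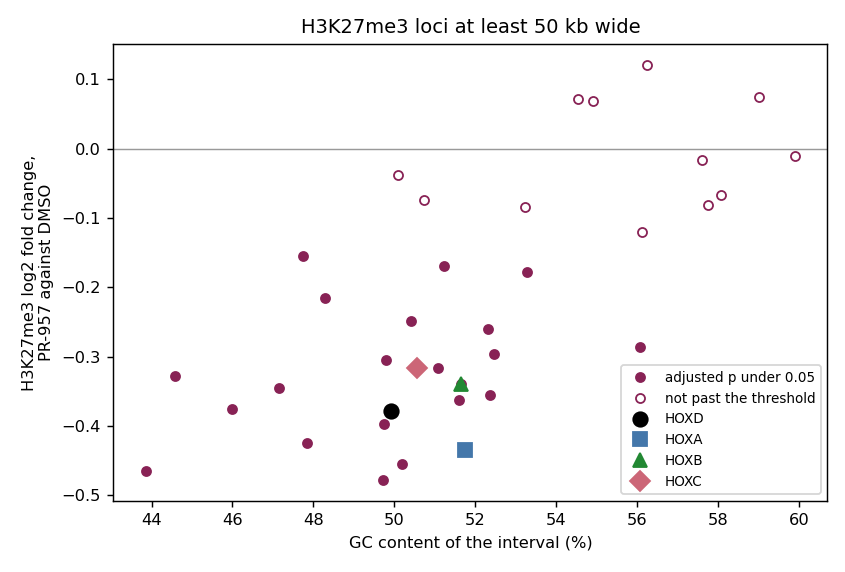
H3K27me3 log2 fold change, PR-957 against DMSO (y axis), against GC content in percent (x axis) for the 36 loci at least 50 kb wide. Filled points passed an adjusted p of 0.05 in edgeR and open points did not, and larger symbols mark the main intervals of the 4 HOX clusters. HOXD lies at 49.9% GC and -0.38, with 6 loci below it.

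H3K4me3 inside the domain was sparse. HOXD8, a central HOX gene, had the interval chr2:176128503-176131170, which holds its first start and exonic sequence and also lies within the antisense gene HOXD-AS2. Its counts were 81 and 68 in DMSO and 76 in each PR-957 library, or 1.81 and 1.63 CPM against 2.49 and 2.51 CPM. Both PR-957 libraries lay above both DMSO libraries, as in 18.1% of the 59229 intervals tested. The log2 fold change was 0.54 with a standard error of 0.31 and an edgeR adjusted p of 0.735 (unadjusted p = 0.0816).

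HOXD13, which patterns the digits, had the interval chr2:176092111-176093742 over its start. It held 31 and 28 counts in DMSO and 34 and 22 in PR-957, or 0.694 and 0.673 CPM against 1.12 and 0.726 CPM. After scaling the groups again did not overlap, with 0.694 CPM the highest in DMSO and 0.726 CPM the lowest in PR-957. Of all H3K4me3 intervals tested, 18.1% were separated in this direction. In raw counts the HOXD13 groups overlapped, with 22 in PR-957 below both DMSO libraries. The log2 fold change was 0.43 with a standard error of 0.49 and an edgeR adjusted p of 0.912. Thus 0 of the 2 genes with an H3K4me3 interval passed in edgeR, and 0 had an unadjusted p under 0.05, beside 0.226% of all intervals called in either direction. DESeq2, which called 0.0507% of intervals higher, did not call HOXD8 and gave HOXD13 no adjusted p.

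The densities at both genes were near the bottom of the scale for H3K4me3. Over the 4 libraries the HOXD8 interval had 0.792 CPM per kb and the HOXD13 interval 0.492 CPM per kb, against 4.57 CPM per kb for the median of 12790 protein-coding genes with an interval. Only 3.70% of these genes lay below HOXD8 and 0.579% below HOXD13. In CPM per kb in DMSO the order was HOXD8 at 0.646 and HOXD13 at 0.419.

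Other H3K4me3 intervals of the domain lay just outside the 2 kb windows. An intronic interval of HOXD3, chr2:176140051-176141681, was 3094 bp from the nearest HOXD3 start. It had 90 and 52 counts in DMSO against 57 and 58 in PR-957. By CPM the groups overlapped there, and the log2 fold change was 0.21 with a standard error of 0.34. Of its 2 other versions, the narrowest had groups that did not overlap and a log2 fold change of 0.34. An interval inside EVX2, chr2:176079759-176081516, was 2446 bp from its start and had 81 and 80 counts in DMSO against 62 and 86 in PR-957. All 11 H3K4me3 intervals in the domain, which are overlapping versions of these 4 sites, had a log2 fold change above 0 and none passed in edgeR. The median of all tested H3K4me3 intervals was -0.0010, so values above 0 were common. The 11 share the same 4 libraries and are not independent, so no direction is drawn from their signs. The sum over the 3 sites of HOXD genes was 4.52 and 3.56 CPM in DMSO and 5.48 and 5.15 CPM in PR-957, on a width of 5.93 kb, with an exact two-sided permutation p of 0.333, the smallest possible.

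CG number was high under these sites. The 1 kb around the midpoint of the H3K4me3 interval held 115 CG at HOXD13 and 114 at EVX2. At HOXD8 it held 105 CG, taken around the midpoint of chr2:176128402-176130943, an overlapping version of the interval named above. Of the 136 consecutive 1 kb bins of the domain, whose median was 25 CG, 97.8% held fewer than each of these. The HOXD3 intronic site held 54 CG, more than 77.9% of bins.

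H3K4me1 was listed for 1 member. The interval chr2:176164297-176166471 lies 220 bp from the start of an alternative transcript of HOXD3, in introns of HOXD3 and of the antisense HAGLR and over an exon of an unnamed gene. It held 26 and 32 counts in DMSO and 6 and 38 in PR-957, or 0.881 and 1.34 CPM against 0.385 and 1.65 CPM. The PR-957 libraries lay on either side of both DMSO libraries, so no direction can be given. The log2 fold change was -0.02 with a standard error of 0.48 (edgeR adjusted p = 0.989), and its sign turned with library size alone (0.021). HOXD3 was thus not called, beside 1.94% of all 108158 intervals called in either direction. Its density of 0.489 CPM per kb exceeded that of 1.51% of 8701 genes with an interval.

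Further H3K4me1 intervals in the domain stood for no HOXD gene. Beyond EVX2, in sequence with no annotated gene, chr2:176066628-176071074 had 3.73 and 4.52 CPM in DMSO and 3.27 and 2.78 CPM in PR-957. In this widest of 4 overlapping versions of the site the groups did not overlap, as in 23.2% of H3K4me1 intervals in this direction, and the log2 fold change was -0.45 (standard error 0.24, edgeR adjusted p = 0.332). In the 3 narrower versions the groups overlapped, and the log2 fold changes were -0.18, -0.24 and -0.19. It lies inside the lower H3K27me3 shoulder described above. An interval within HAGLR, chr2:176174380-176176514, had 1.59 and 2.34 CPM in DMSO and 1.99 and 1.74 CPM in PR-957, and the groups overlapped. The interval chr2:176177359-176179329, covers the starts of HAGLROS and of HAGLR transcripts and had 1.56 and 1.42 CPM in DMSO against 0.770 and 1.48 CPM in PR-957.

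**Figure D5:**
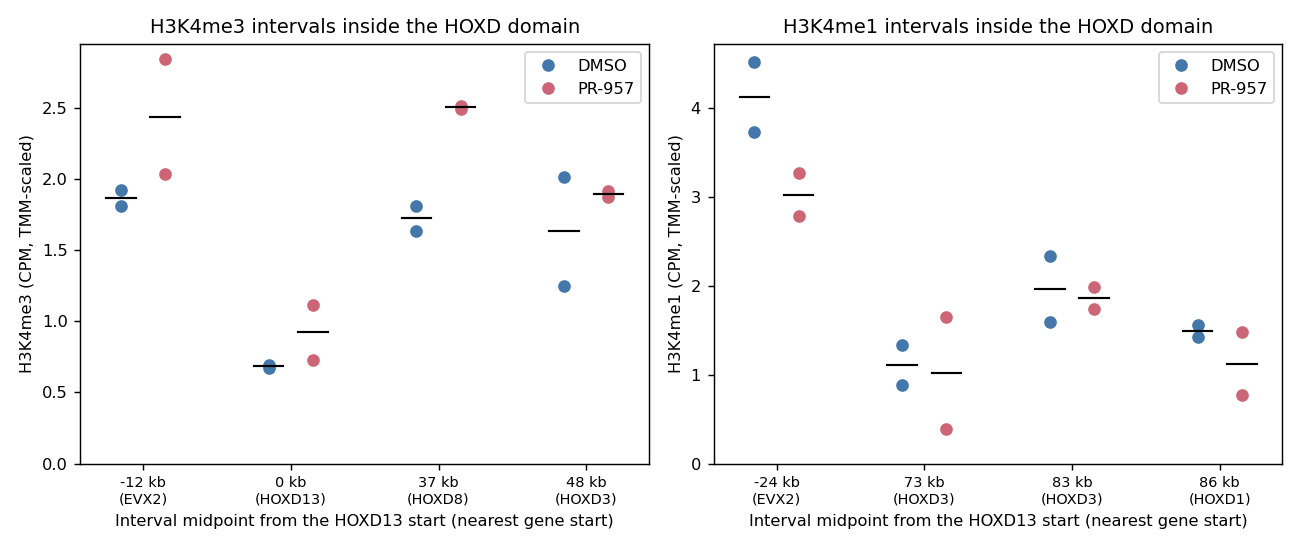
H3K4me3 (left) and H3K4me1 (right) in the separate intervals of the HOXD domain, in CPM after TMM scaling (y axis). The x axis gives the distance of the interval midpoint from the HOXD13 start. It also names the nearest start among the HOXD genes and EVX2 only, leaving out the noncoding genes. Points are libraries and lines group means of 2. The HOXD8 groups do not overlap (1.81 and 1.63 against 2.49 and 2.51 CPM), as in 18.1% of H3K4me3 intervals in this direction. The HOXD8 difference was not called (edgeR adjusted p = 0.735). The HOXD3 H3K4me1 site spans 0.385 to 1.65 CPM in PR-957 alone.

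No H3K27ac interval was listed anywhere in the domain, so H3K27ac could be neither measured nor compared there. The nearest ones lay 56.9 kb before it, at LNPK, and 71.7 kb after it, at MTX2. A region with no listed interval has no count in these files, which is not a level of 0. The HOXB and HOXC genes likewise had no H3K27ac interval, while 8 of 11 HOXA genes had one, through 3 separate intervals, and 5 of the 8 were called lower through 1 interval, beside 0.173% of all H3K27ac intervals. HOXA genes also had H3K4me3 intervals at 9 of 11 genes, with a summed level of 226 and 216 CPM in DMSO over 58.7 kb, against 4.52 and 3.56 CPM over 5.93 kb for HOXD.

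The genes examined outside the H3K27me3 domain, on either side, carried active marks and no H3K27me3 interval. LNPK, which shapes the endoplasmic reticulum, MTX2, a mitochondrial import protein, and the more distant ATF2, ATP5MC3, HNRNPA3 and NFE2L2 each had an H3K27ac and an H3K4me3 interval. None of these 6 was called in either modification by edgeR. The LNPK promoter had 19.6 and 21.3 CPM of H3K4me3 in DMSO and 21.6 and 22.0 CPM in PR-957, and that of MTX2 had 16.1 and 16.4 CPM against 17.1 and 15.5 CPM.

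The genes most like the HOXD members were sought by H3K27me3 alone, the one modification in which at least 5 members had an interval, as the smallest Euclidean distance in log2(CPM per kb + 1) over 4 libraries among 3937 protein-coding genes outside the HOX clusters. EVX2 was at 0 because it shares the interval. PAX2, a kidney and eye transcription factor, followed at 0.176, with a log2 fold change of -0.30 (edgeR adjusted p = 5.90e-09). The distance uses the PR-957 libraries as well as DMSO, so a similar fold change is partly built into this choice.

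The libraries held between 9885836 and 14165777 counts for H3K27ac, 10032503 and 12047958 for H3K27me3, 15204186 and 30584219 for H3K4me1, and 30070119 and 44591150 for H3K4me3. The label was set beside markers: 9 of 10 myeloid genes had an H3K4me3 interval, with MPO the one without, and none had an H3K27me3 interval. The summed level of the myeloid intervals was 286 to 291 CPM in DMSO and 275 to 299 CPM in PR-957. Of the T cell markers 2 of 5 had an H3K4me3 interval and CD3D, CD3E and CD3G had none. For B cell, erythroid and epithelial markers the counts were 2 of 4, 2 of 4 and 3 of 4. An H3K27me3 interval was listed for 2 of 5 T cell, 1 of 4 B cell, 1 of 4 erythroid and 3 of 4 epithelial markers. Median H3K4me3 density was 3.54 CPM per kb for the myeloid list and 4.13 for the erythroid list. It was 2.44 for T cell, 3.21 for B cell and 0.792 for epithelial markers. H3K4me3 alone thus did not set the myeloid list apart from every other list.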

How the data were processed

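MOLM-13 cells were profiled by Cut&Tag. The authors' deposited files hold raw whole-number counts (reads or fragments, not stated which) on 1 list of intervals per modification, with a column for each of its 4 libraries. The submitters' processing notes name Trimmomatic 0.39, Bowtie2 2.2.5, Picard 2.27.1, SAMtools 1.7, SEACR 1.3, deepTools 3.5.1 and hg38. The counter, the handling of duplicates and whether intervals were called per library or on pooled libraries are not given in the sources used here. Listed intervals overlap, so a fragment can count in several. All 275391 intervals lie within hg38 chromosome lengths, and coordinates are printed as listed.

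Intervals were kept by filterByExpr (minimum count 10), scaled by TMM to CPM and tested in edgeR 4.0.16 (quasi-likelihood test, R 4.3.3), within each modification, with Benjamini-Hochberg adjustment over all intervals tested at 0.05. Starts came from GENCODE release 44, and sequences were handled in Python 3.11.15. All 9 members were named in each modification, with the genes in and beside the cluster, the other HOX clusters by counts and the 3 most similar genes, of which the last in order is not reported here. The members and lists were chosen with earlier results of these data known.

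Alternatives were RLE factors, library size, cyclic loess offsets (limma 3.58.1), DESeq2 1.42.0, no filter, a replicate block, only intervals with a mean count from 50 up, 1 interval per locus, windows of 1 and 5 kb, the nearest interval, the narrowest intervals for the sums, and leaving out each library. Loci at least 50 kb wide and offsets that remove a loess trend (span 0.3) on GC content or counts per kb were added after seeing the data. The 2 IgG samples are not analysed here.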

Additional observations from a re-analysis of the deposited data

How the results depend on the processing

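H3K27me3 over the HOXD genes was called lower for all 9 genes under every alternative run except cyclic loess offsets, under which 0 were called (log2 fold change -0.05). Leaving out each library gave -0.46 to -0.32 for the interval, and -0.45 to -0.31 for the cluster sum. One interval per locus gave -0.44, a mean count of at least 50 gave -0.32 and no filter -0.39. Over all settings the log2 fold change was -0.46 to -0.05 and the adjusted p 2.00e-20 to 0.121. The cause of the loss under cyclic loess was not tested.

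For H3K4me3 no setting called HOXD8 (log2 fold change 0.39 to 0.61, adjusted p 0.565 to 1.00) or HOXD13 (0.088 to 0.70), nor HOXD3, which the window of 5 kb adds. HOXD3 in H3K4me1 changed sign with library size alone (0.021), with the GC trend removed (0.069) and over the left-out libraries (-1.496 to 0.59), and was called in none. It was at 0.29 without DMSO replicate 2 and at 0.59 without PR-957 replicate 1, the library with 6 counts. The HOXD sum of H3K4me1 ran from -0.54 to 0.093 (log2) over the left-out libraries. The log2 ratio of HOXD to HOXB in H3K27me3 ran from -0.029 to 0.0026, and in H3K4me1 that of HOXD to HOXA from -0.25 to 0.28 and of HOXD to HOXC from -0.24 to 0.44. A mean count of at least 50 left HOXD3 in H3K4me1 and HOXD13 untested, DESeq2 gave both no adjusted p, and no alternative could be run for H3K27ac members.

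Counts of calls over all intervals moved more. They were 177 for H3K27ac (85 with DESeq2, 39 with 1 interval per locus, 20 to 89 with a library left out) and 1882 for H3K27me3 (488 with 1 interval per locus, 1168 to 1517). They were 2099 for H3K4me1 (26 with DESeq2, 539 with 1 interval per locus, 952 with the GC trend removed, 322 to 1756) and 134 for H3K4me3 (34, 31 and 28 to 170 with DESeq2, 1 interval per locus and left-out libraries). Fewer intervals enter the fit with 1 per locus. The H3K4me1 and H3K4me3 intervals of the domain rest on 6 to 110 counts per library. Differences larger than their standard errors also went uncalled at this depth. One was HOXD8 in H3K4me3 (log2 fold change 0.54, standard error 0.31, edgeR adjusted p = 0.735). The smallest difference that could be called was not determined.

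With the replicate number as a block, the HOXD H3K27me3 interval had a log2 fold change of -0.38 (edgeR adjusted p = 3.99e-06), all 9 genes were called, and no HOXD call changed. Calls over all intervals were 195, 1324, 1904 and 161 for H3K27ac, H3K27me3, H3K4me1 and H3K4me3. Same-numbered libraries shared little, with correlations of their deviations of -0.0050, -0.0089, -0.0013 and 0.15, so the number is not treated as a pairing.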
